A study of Canis lupus familiaris with 22 samples.

Results

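Genes for leukocyte surface antigens and for the dog major histocompatibility complex (MHC, dog leukocyte antigen or DLA) were followed across malignant, benign and healthy mammary tissue. They were chosen by symbol: every non-control probe that targets a canine RefSeq NM transcript was taken if its gene symbol starts with CD and a digit, or with DLA, FCER or FCGR, leaving out CD36, CD40, CD40LG and FCGR1A. The rule found 31 genes, read by 50 of 43603 probes. Of these genes, 19 carry a CD symbol, 10 a DLA symbol and 2 an FCER symbol, and no FCGR gene was left. The array total of 36619 genes mixes 1458 known by symbol with probe targets that lack one, each counted as a gene. Among the 28936 tested, 1322 are known by symbol, so a share of all genes below is mostly a share of unnamed targets.

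The study compared canine mammary tumours (CMTs) with healthy mammary tissue on Agilent canine arrays with 1 colour, Cy3. Scanner values were analysed for 5 dogs labelled as having a mammary gland tumour with a malignant diagnosis (9 arrays), 3 dogs labelled as having such a tumour with a benign diagnosis (6 arrays) and 2 dogs labelled as having healthy mammary tissue (4 arrays). A further benign and a further healthy tissue that the study lists are not among the labelled samples. The study lists a different histological type for each malignant tumour, so the malignant dogs are not repeats of a single kind of tumour. Arrays a and b of a dog were averaged, and n counts dogs. The labels give no age, breed or treatment. Malignant dog 6 and the second array of malignant dog 5 entered only through a table of signals.

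MHC class I molecules show peptides from inside the cell to CD8 T cells and are made by nearly all nucleated cells, while class II molecules show peptides from engulfed proteins to CD4 T cells and are made mainly by dendritic cells, macrophages and B cells. CD antigens are membrane proteins by which leukocytes are told apart, although several of them are also carried by epithelium, endothelium or stroma. Mammary tumours are known to hold macrophages, dendritic cells, mast cells and lymphocytes in varying amounts.

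The level of a gene is the log2 of the processed signal of its probe minus the 75th percentile of the array, so 0 is that percentile and a difference of 1 is a doubling. Levels were compared between dogs for 1 gene at a time, because probes differ in brightness, and the brightest probe of a list or a summed level over its genes only describes the signal of that list. Array brightness differed between dogs. The 75th percentile of the processed signal, as the mean over a dog's arrays, was 1436, 1218, 315, 774 and 453 units in malignant dogs 1 to 5, 1530, 1457 and 1091 in benign dogs 1 to 3 and 439 and 648 in healthy dogs 1 and 2. Both arrays of a dog gave nearly the same values, with r between 0.982 and 0.990 across all probes of the 9 dogs with a pair of arrays, which are not independent measurements.

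The label of the healthy tissue was checked against markers of other tissues. Of 28 listed genes of the exocrine pancreas, 7 were found by symbol. A listed gene without a symbol match may still have a probe, here and in the lists below. All 7 were lower in both kinds of tumour than in the healthy dogs, 6 of them with an adjusted p of at most 0.05 in each comparison (limma, Benjamini-Hochberg over all genes tested). Their summed level was 0.70, 0.79, 1.84, 0.86 and 1.68 in malignant dogs 1 to 5, 1.79, 1.01 and 1.17 in benign dogs 1 to 3 and 12.18 and 10.06 in healthy dogs 1 and 2. PLA2G1B, a secreted phospholipase, was at -1.26, -0.79, 0.79, -0.92 and -0.17 in malignant dogs 1 to 5, 0.38, -0.59 and -0.93 in benign dogs 1 to 3 and 10.18 and 8.85 in healthy dogs 1 and 2. The other 6 lay between 1.99 and 10.11 in the healthy dogs and at most at 0.88 in the tumours. Healthy dog 1 was above healthy dog 2 in PLA2G1B, and both were far above every tumour. Of 8 listed islet genes 7 were found by symbol and 6 were tested, and all 6 had lower means in both kinds of tumour, with 3 called for malignant and 2 for benign tumours. Their summed level was -2.08, -2.09, -0.76, -1.80 and -1.35 in malignant dogs 1 to 5, -1.68, 2.29 and -1.82 in benign dogs 1 to 3 and 9.62 and 4.81 in healthy dogs 1 and 2. The highest tumour in that sum was benign dog 2, with GCG, the gene of glucagon, at 2.19, beside 2.83 and -2.11 in healthy dogs 1 and 2. PPY, the gene of pancreatic polypeptide and the brightest probe of the 6 over all dogs, was at 6.30 and 0.61 in the healthy dogs and -2.15 in benign dog 2. KRT14, a keratin of myoepithelial cells and the brightest probe of 7 mammary epithelium markers, was present in the healthy dogs at 3.92 and 5.0 and in the tumours at 6.24, 5.99, 2.99, 7.34 and 0.86 in malignant dogs 1 to 5 and 4.87, 1.79 and 8.37 in benign dogs 1 to 3. In healthy dogs 1 and 2 KRT19 was at 3.34 and 5.19, CDH1 at 2.7 and 3.22 and ERBB2 at 0.59 and -0.09. PGR was at -0.50 and 0.78 there, MUC1 at -2.77 and -3.0 and ESR1 at -6.52 and -3.41. By these values both samples labelled healthy mammary tissue hold transcripts of the 7 exocrine pancreas genes above every tumour, beside epithelial keratins. In the islet genes GCG and PDX1 healthy dog 2 lay below the highest tumour. The values do not tell where the pancreas transcripts came from. Whether the label of healthy mammary tissue is right is not settled by these markers. Every difference from healthy tissue given here is a difference from these 2 samples. The part of the pancreas signal in any leukocyte gene's difference was not tested.

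Healthy dogs also differed from each other in the leukocyte genes themselves. Of the 30 genes that could be tested, 24 were higher in healthy dog 2 than in healthy dog 1, with a median difference of 2.02 log2 units, and 21 were higher by more than 1 unit. Over all 28936 genes tested, 48.8% were higher in healthy dog 2 and the median difference was -0.04. Healthy dog 1 was the lowest of the 10 dogs in 15 of the 30 genes, beside 17.7% of all genes tested. A bulk measurement cannot tell fewer leukocytes from less RNA of a gene in each leukocyte.

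**Figure D1:**
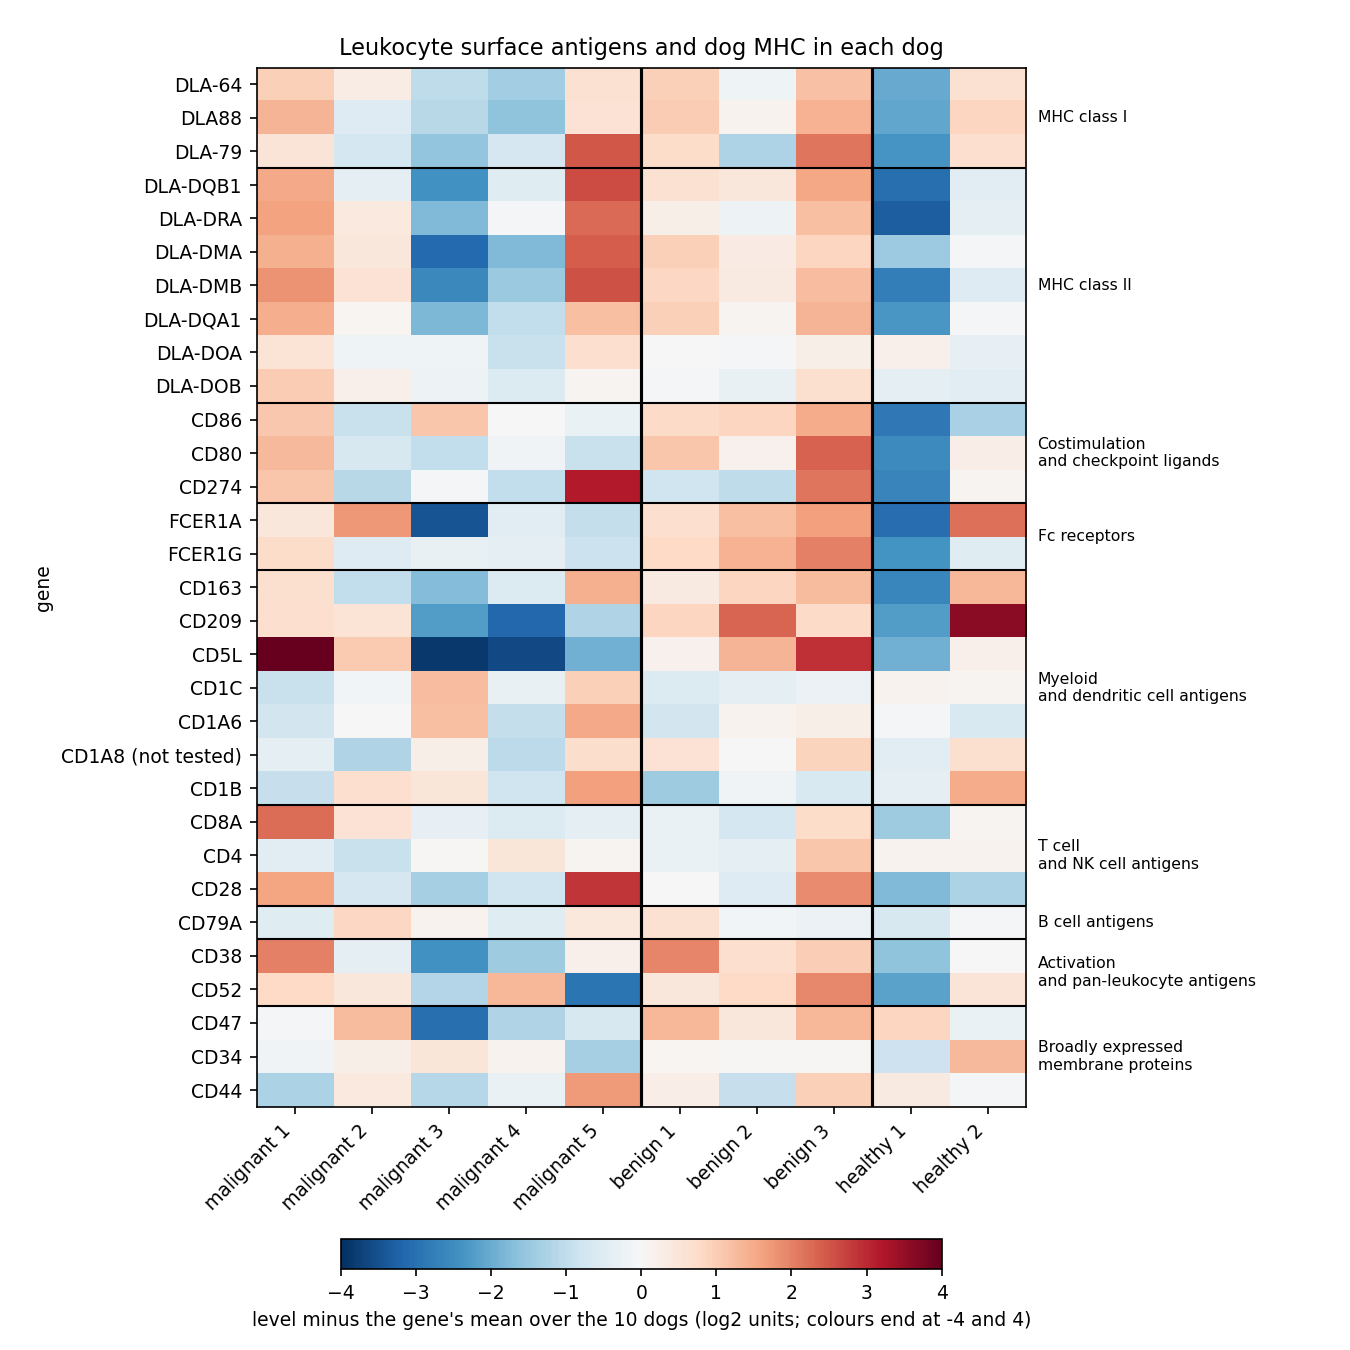
Heat map of the 31 genes, grouped by role, in the 10 dogs, grouped by diagnosis. Colour gives the level minus the gene's mean over the dogs in log2 units, and most genes are below their mean in healthy dog 1 and above it in benign dog 3, the dogs with the lowest and highest median, -1.97 and 1.21.

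Among all 10 dogs, the order did not follow diagnosis alone. With each gene set to its mean over dogs, the median of the 30 genes was 0.86, 0.13, -1.13, -0.62 and 0.59 in malignant dogs 1 to 5, 0.53, 0.13 and 1.21 in benign dogs 1 to 3 and -1.97 and 0.05 in healthy dogs 1 and 2. Benign dog 3 and malignant dog 1 were highest, healthy dog 2 sat close to benign dog 2 and malignant dog 2, and malignant dogs 3 and 4 lay between the healthy dogs. Malignant dog 5 was the highest dog in 12 of the 30 genes, beside 19.9% of all genes tested, and benign dog 3 in 8, beside 7.63%. Malignant dog 3 and healthy dog 1, the lowest dogs, also had the dimmest arrays. The array of malignant dog 5 had a 75th percentile of 453 units on another scanner. That was 18.1 times its median background, beside 6.37 and 8.46 for the arrays of malignant dog 3 and 13.3 and 8.58 for those of healthy dog 1. The part of brightness was not tested beyond the other scalings.

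**Figure D2:**
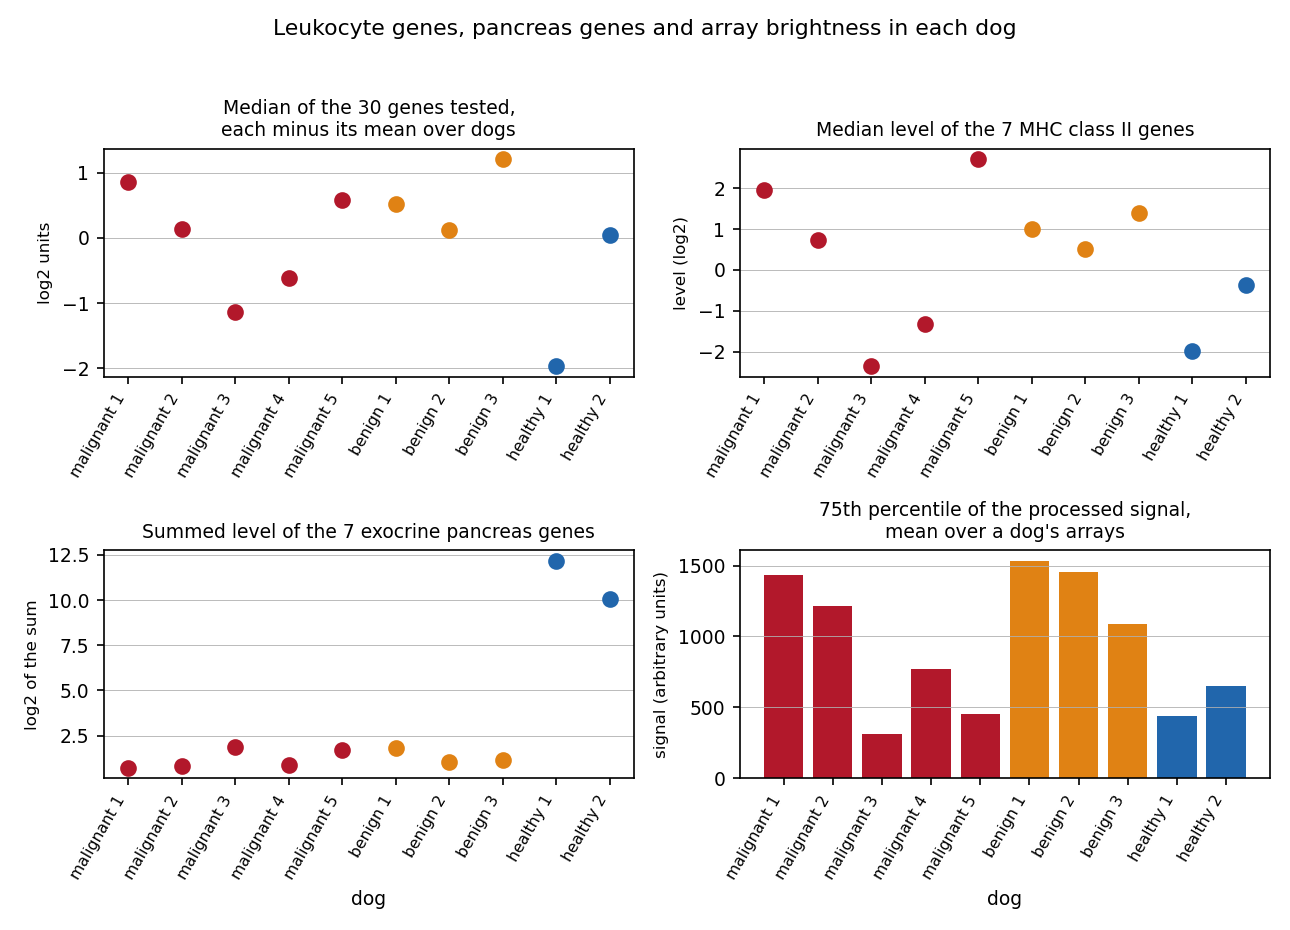
Each dog's median over the 30 tested genes relative to the gene means (top left), median level of the 7 class II genes (top right), summed level of the 7 exocrine pancreas genes (bottom left) and 75th percentile of the processed signal (bottom right), with malignant dogs in red, benign in orange and healthy in blue. Exocrine pancreas genes reach 12.18 and 10.06 in the healthy dogs and at most 1.84 in a tumour, while the median over the leukocyte genes of healthy dog 2 lies within the range of the tumours.

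The first comparison asked whether malignant tumours carried more leukocyte transcripts than healthy mammary tissue. CD86 was higher in 5 of 5 malignant dogs than in both healthy dogs, and on average the class II genes DLA-DRA and DLA-DQB1 were higher by 2.34 and 1.89 log2 units without a separation of the groups. Of the 30 genes tested, 23 had a higher mean in malignant tumours and 7 a lower one, beside 53.9% higher among all genes tested. Without healthy dog 1 the number higher was 14, and without healthy dog 2 it was 26. The median log2 difference of the 30 was 0.52, beside 0.07 for all genes. None of the 30 was called by limma at an adjusted p of at most 0.05, where 0.304% of all genes were called. CD86 was called with arrays fitted singly and the dog as a random block. That fit counts arrays, not dogs, when it judges the spread, so its p may be too small. At an unadjusted limma p below 0.05 there was 1 (CD86), beside 5.86% of all genes, and the methods' t-test, run unpaired and without the methods' Storey correction, also gave 1 at an unadjusted p below 0.05 and 0 after Benjamini-Hochberg adjustment. CD86 was also the 1 gene with every malignant dog above every healthy dog, a separation seen in 4.23% of all genes tested, and 0 lay wholly below, against 2.79%. The median rested on healthy dog 1: it was -0.06 without that dog and 1.79 without healthy dog 2, beside 0.31 without malignant dog 1 or 5 and 0.79 without malignant dog 3. With CD28, measured on no healthy array, at its bound the medians against healthy tissue were 0.48 for malignant and 1.38 for benign tumours.

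The second comparison set benign tumours against the same healthy tissue. CD86, FCER1G, the 6 class II genes DLA-DQB1, DLA-DMB, DLA-DRA, DLA-DQA1, DLA-DMA and DLA-DOB, and CD38 all lay above both healthy dogs in every benign dog. For DLA-DOB the margin was small, with benign dog 2 at -3.32 beside -3.42 and -3.45 in healthy dogs 1 and 2. With median signals and no background taken off, benign dogs 1 and 2 lay below both healthy dogs in DLA-DOB. Of the 30 genes, 26 had a higher mean than in healthy tissue and 4 a lower one, beside 50.3% higher among all genes. The median log2 difference was 1.43, beside 0.01 for all genes, and 18 genes were higher by more than 1 unit, beside 12.2% of all genes. Again 0 were called by limma, where 0.280% of all genes were called, with 3 at an unadjusted limma p below 0.05 (CD86, FCER1G and CD80), beside 6.78% of all genes. The methods' t-test gave 3 at an unadjusted p below 0.05 and 0 after adjustment. In 10 of the 30 genes every benign dog was above both healthy dogs, beside 11.9% of all genes, the tenth being CD28, for which no healthy array was well above background so that its order is not established, and in 1 every benign dog was below both, beside 11.6%. Without healthy dog 1 the median difference was 0.43 and without healthy dog 2 it was 2.78, and in the latter fit, in which the lone healthy dog is assumed to vary like the other groups, CD86 and FCER1G were called by limma with adjusted p of 0.0434 and 0.0270, where 860 of all 28936 genes were called, beside 81 with all dogs. CD86 was also called with arrays fitted singly and the dog as a random block, where p may be too small. On the table of median signals, from which no background is taken and on which the median of all genes moved to -0.39, 18 of the 30 were higher in benign tumours. The median of the 30 was 0.74 there and 0.84 with normexp background and quantile normalisation. Malignant and benign differences share the healthy dogs, so they do not stand for each other.

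Malignant and benign tumours were set side by side to see whether the leukocyte genes differed with diagnosis. Most genes were lower on average in malignant tumours, 22 of 30, with a median log2 difference of -0.66, beside 0.08 for all genes. That median was -1.03 without malignant dog 1, -0.24 without malignant dog 3, -0.44 without malignant dog 4 and -0.39 without benign dog 3. FCER1G and CD209 were lower in 5 of 5 malignant dogs than in every benign dog, 2 of 30 genes beside 0.878% of all genes, and 0 were higher in every malignant dog, beside 1.07%. Both margins were small. Malignant dog 1 was at -1.99 beside -1.92 in benign dog 1 for FCER1G, and at -2.10 beside -2.02 in benign dog 3 for CD209. None of the 30 was called by limma, where 0% of all genes were called. At an unadjusted limma p below 0.05 there was 1 (FCER1G), beside 1.77% of all genes, and the methods' t-test gave 1 at an unadjusted p below 0.05 and 0 after adjustment.

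**Figure D3:**
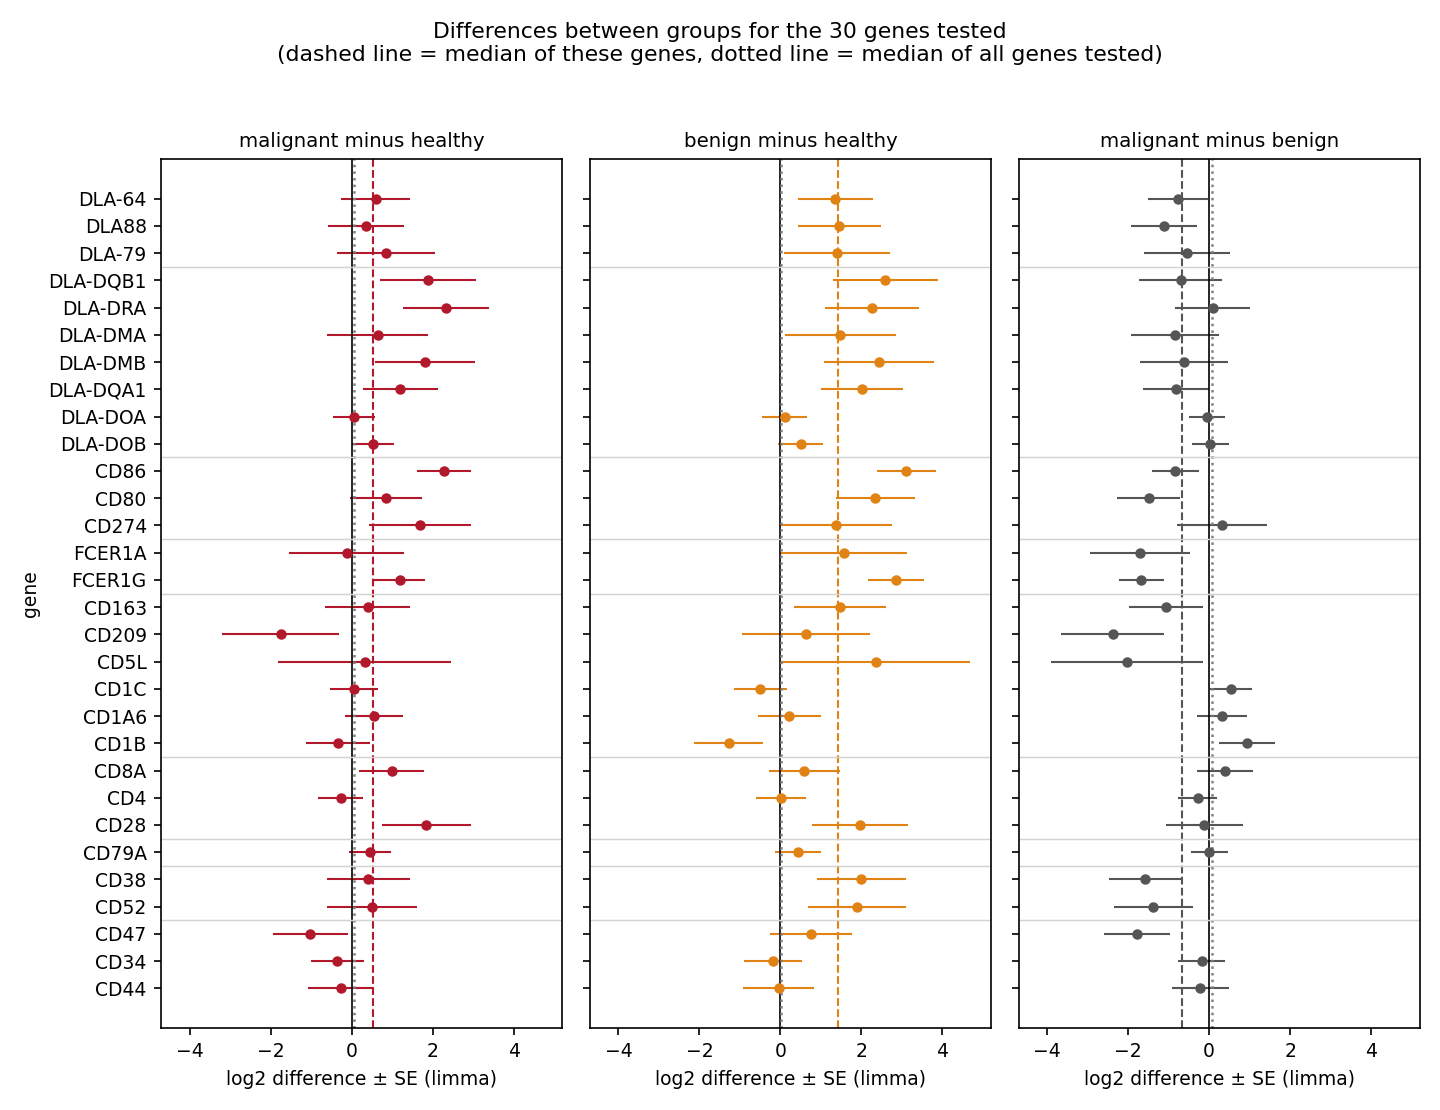
Log2 differences with their standard errors from limma for the 30 tested genes in the 3 comparisons, in order of role. The dashed median of these genes lies at 0.52, 1.43 and -0.66 and the dotted median of all genes tested near 0, and most error bars are about 1 log2 unit long on each side.

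Standard errors of single genes were large, with a median of 0.93 log2 units for malignant minus healthy and 1.01 for benign minus healthy, and every comparison with healthy tissue rests on 2 healthy dogs.

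Class I genes, which carry the classical and nonclassical heavy chains, were measured by 3 genes. DLA88, the classical gene, had levels of 6.92, 5.01, 4.43, 3.93 and 6.12 in malignant dogs 1 to 5, 6.55, 5.68 and 6.92 in benign dogs 1 to 3 and 3.45 and 6.41 in healthy dogs 1 and 2. Malignant dogs 1 and 5 and all benign dogs were high, malignant dogs 3 and 4 and healthy dog 1 were low, and healthy dog 2 lay among the benign dogs, so the groups overlapped. DLA-64, a nonclassical gene, ran through the dogs in much the same way at 7.55, 6.89, 5.59, 5.22 and 7.21 in malignant dogs 1 to 5, 7.57, 6.43 and 7.79 in benign dogs 1 to 3 and 4.61 and 7.21 in healthy dogs 1 and 2. Group means of DLA88 were 5.28 ± 1.22 (SD, n = 5), 6.39 ± 0.641 (SD, n = 3) and 4.93 ± 2.1 (SD, n = 2), and the class's median log2 difference from healthy tissue was 0.59 in malignant and 1.40 in benign tumours. Without healthy dog 1 it was -0.71 and -0.03, and without healthy dog 2 it was 1.89 and 2.92. The malignant value was also 0.32 without malignant dog 1, 0.91 without malignant dog 4 and 0.23 without malignant dog 5. DLA-79, a diverged class I gene, ranged over 4.85 log2 units with malignant dog 5 highest and healthy dog 1 lowest. Class I genes are polymorphic and close in sequence, so a probe may bind transcripts of more than 1 of them or bind an allele weakly, and their levels are uncertain in that respect. The 2 other probes of DLA-64 gave log2 differences of 0.64 and 0.32 for malignant minus healthy and of 1.79 and 1.40 for benign minus healthy, beside 0.59 and 1.36 for the probe used.

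Class II genes varied widely within the malignant group. DLA-DRA, the alpha chain of the DR molecule, had levels of 5.72, 4.49, 2.35, 4.07 and 6.38 in malignant dogs 1 to 5, 4.34, 3.90 and 5.30 in benign dogs 1 to 3 and 0.80 and 3.73 in healthy dogs 1 and 2. All benign and 4 of 5 malignant dogs were above both healthy dogs, and malignant dog 3 fell between them. The log2 difference was 2.34 ± 1.06 (SE) for malignant and 2.25 ± 1.16 (SE) for benign tumours, which is 5.06-fold and 4.76-fold, with limma adjusted p of 0.852 and 0.772. Without healthy dog 1 these differences were 0.87 and 0.79, and without healthy dog 2 they were 3.80 and 3.72.

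DLA-DQB1, the beta chain of DQ, stood at 6.36, 4.44, 2.43, 4.34 and 7.45 in malignant dogs 1 to 5, 5.44, 5.28 and 6.39 in benign dogs 1 to 3 and 1.81 and 4.42 in healthy dogs 1 and 2. Again all benign dogs were above both healthy dogs, but only malignant dogs 1, 2 and 5 were, and the difference was 1.89 ± 1.18 (SE) for malignant and 2.59 ± 1.29 (SE) for benign tumours (limma adjusted p = 0.935 and 0.766), which moved to 0.59 and 1.29 without healthy dog 1 and to 3.20 and 3.90 without healthy dog 2. Its 3 other probes gave larger differences for benign tumours, up to 3.13, and between 1.25 and 2.16 for malignant tumours. Levels of DLA-DQA1, the alpha chain of DQ, ranged over 3.78 log2 units, with malignant dog 1 highest and healthy dog 1 lowest.

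DLA-DMA and DLA-DMB form the DM molecule, which helps to load peptides onto class II. DLA-DMB was at 1.95, 0.74, -2.41, -1.31 and 2.71 in malignant dogs 1 to 5, 0.99, 0.51 and 1.39 in benign dogs 1 to 3 and -2.59 and -0.36 in healthy dogs 1 and 2. Malignant dogs 1, 2 and 5 and the benign dogs were above both healthy dogs, whereas malignant dog 3 was close to healthy dog 1, and the difference was 1.81 ± 1.24 (SE) for malignant and 2.44 ± 1.35 (SE) for benign tumours (limma adjusted p = 0.939 and 0.793), or 0.69 and 1.32 without healthy dog 1 and 2.93 and 3.55 without healthy dog 2. DLA-DMA ran from -2.22 in malignant dog 3 to 3.30 in malignant dog 5, with both healthy dogs below all benign dogs.

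Across these 5 class II genes, malignant dogs 1 and 5 were each among the highest 3 dogs in 5 of 5 genes and benign dog 3 in 4. Malignant dog 3 and healthy dog 1 were among the lowest 3 in 5 of 5 and malignant dog 4 in 4. In the other 2 class II genes malignant dog 1 ranked 2 and 1, malignant dog 5 ranked 1 and 4, benign dog 3 ranked 3 and 2 and malignant dog 4 ranked 10 and 10 of 10 dogs, while malignant dog 3 ranked 7 and 6 and healthy dog 1 ranked 4 and 8. These genes, DLA-DOA and DLA-DOB, code for the DO molecule, a partner of DM made chiefly in B cells. By the probes used they differed little between dogs, with ranges of 1.57 and 1.56 log2 units. The other probe of DLA-DOB, well above background on 9 arrays, ran more widely, from -6.84 in malignant dog 4 to -3.15 in malignant dog 1. That of DLA-DOA, on 18 arrays, ran from -3.81 in malignant dog 3 to -1.93 in malignant dog 1.

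**Figure D4:**
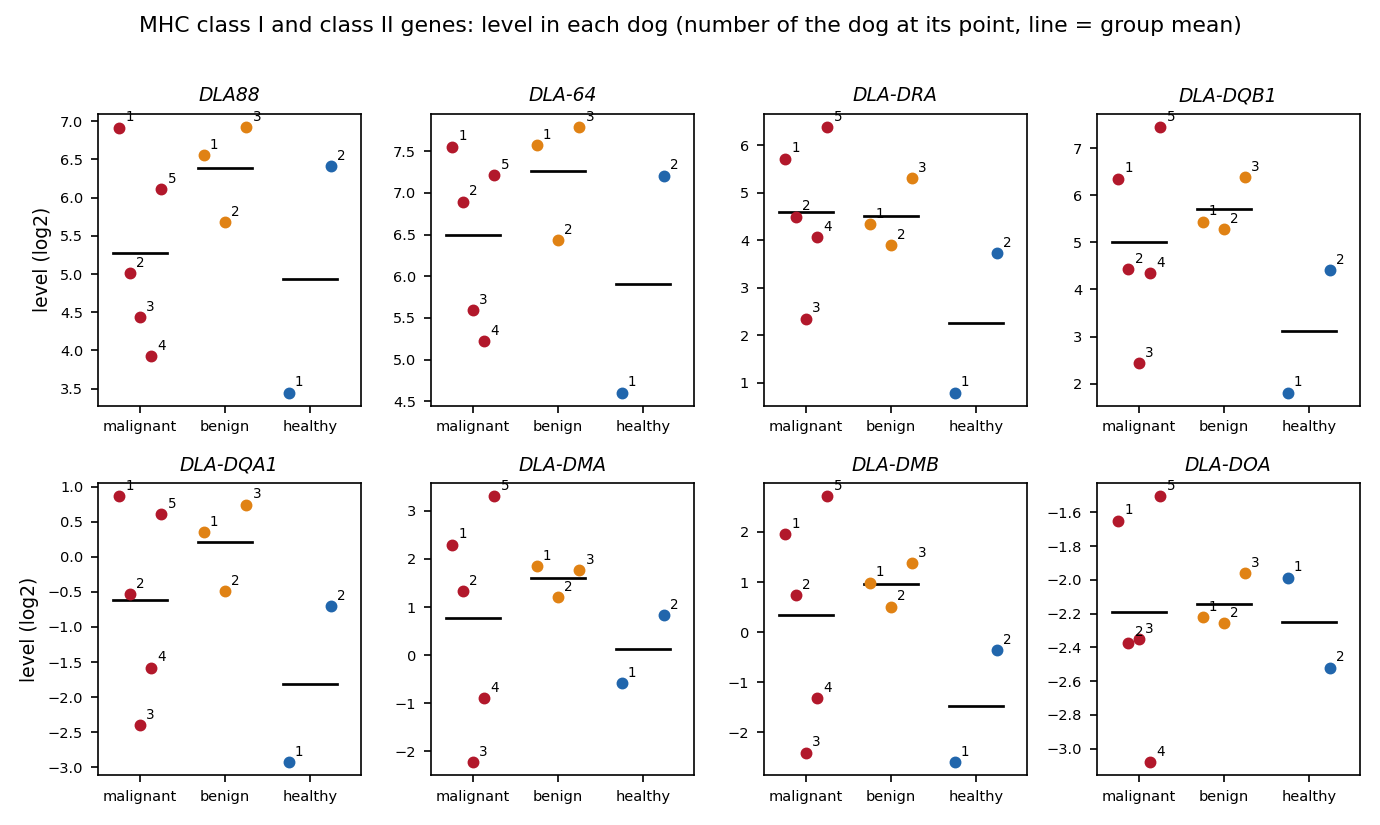
Levels (log2, 0 is the 75th percentile of the array) of 8 MHC genes in each dog, with the number of the dog beside its point and a line at the group mean. For DLA-DRA malignant dog 3 at 2.35 lies between healthy dogs 1 and 2 at 0.80 and 3.73, and DLA-DOA stays between -3.08 and -1.51 in all dogs.

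Other genes of antigen processing were given for context. Of 30 listed, 9 were measured, and 4 were higher and 5 lower in malignant than in healthy tissue, while 7 were higher and 2 lower in benign tumours, none of them called by limma. TAP1, which carries peptides to class I molecules, was at 5.32, 4.27, 2.12, 2.73 and 3.80 in malignant dogs 1 to 5, 4.79, 3.70 and 5.84 in benign dogs 1 to 3 and 2.53 and 4.40 in healthy dogs 1 and 2. PSMB9, a subunit of the immunoproteasome, was at 4.69, 0.34, 1.57, 2.72 and 3.39 in malignant dogs 1 to 5, 5.31, 3.50 and 5.96 in benign dogs 1 to 3 and 1.77 and 4.42 in healthy dogs 1 and 2, and CTSS, a protease that frees class II molecules for loading, at 4.32, 2.60, 2.11, 2.18 and 4.03 in malignant dogs 1 to 5, 3.70, 3.0 and 4.47 in benign dogs 1 to 3 and 0.45 and 3.09 in healthy dogs 1 and 2. All 3 were lowest in malignant dog 3, malignant dog 2 or healthy dog 1 and highest in benign dog 3, and in each of them malignant and healthy dogs overlapped.

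CD86 and CD80 are ligands on antigen-presenting cells that give T cells a second signal through CD28, and CD274 (PD-L1) is a ligand that restrains T cells. CD86 had levels of 2.88, 0.94, 2.92, 1.82 and 1.53 in malignant dogs 1 to 5, 2.58, 2.67 and 3.30 in benign dogs 1 to 3 and -1.05 and 0.52 in healthy dogs 1 and 2. Both healthy dogs were lower than each of the 8 tumours, and malignant dog 2 came nearest to them. The difference was 2.28 ± 0.664 (SE) for malignant and 3.11 ± 0.725 (SE) for benign tumours, or 4.86-fold and 8.63-fold, with unadjusted limma p of 0.00574 and 0.00133 and adjusted p of 0.505 and 0.27. Neither passed the threshold. With arrays fitted singly and the dog as a random block CD86 was called in both (limma adjusted p = 0.0418 and 0.00769), where 138 and 142 of all genes were called. Those p may be too small, because that fit counts arrays, not dogs, when it judges the spread. The differences were 1.5 and 2.33 without healthy dog 1 and 3.06 and 3.89 without healthy dog 2, and in that last fit the benign difference was called.

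CD80 was at -0.27, -2.23, -2.57, -1.72 and -2.48 in malignant dogs 1 to 5, -0.48, -1.39 and 0.78 in benign dogs 1 to 3 and -4.12 and -1.30 in healthy dogs 1 and 2. Benign dogs 1 and 3 and malignant dog 1 were above both healthy dogs, and benign dog 2 fell just below healthy dog 2, so the groups overlapped in spite of an unadjusted limma p of 0.0346 for benign tumours (difference 2.34 ± 0.97 (SE), adjusted p = 0.705). Without healthy dog 1 that difference was 0.94 and without healthy dog 2 it was 3.75. CD274 was at -1.12, -3.33, -2.26, -3.20 and 0.94 in malignant dogs 1 to 5, -3.02, -3.24 and -0.10 in benign dogs 1 to 3 and -4.86 and -2.11 in healthy dogs 1 and 2. Malignant dog 5, benign dog 3 and malignant dog 1 were high in that order, and the other tumours lay between the healthy dogs, with a difference of 1.69 ± 1.27 (SE) for malignant tumours (limma adjusted p = 0.943). That difference was 0.31 without healthy dog 1, 1.0 without malignant dog 5 and 3.06 without healthy dog 2, and it was 0.82 on the table of the same dogs, while the second probe of CD274 gave 2.09. Of the 4 healthy arrays 2 were well above background for CD274.

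Fc receptor genes were FCER1G, the signalling chain shared by several Fc receptors of myeloid cells, mast cells and NK cells, and FCER1A, the IgE-binding chain of mast cells and basophils. FCER1G was at -1.99, -3.24, -3.01, -3.07 and -3.58 in malignant dogs 1 to 5, -1.92, -1.32 and -0.69 in benign dogs 1 to 3 and -5.11 and -3.20 in healthy dogs 1 and 2. Benign dogs were above all malignant and healthy dogs, and malignant dogs 1, 3 and 4 were above healthy dog 2. The difference was 2.85 ± 0.695 (SE) between benign tumours and healthy tissue and -1.67 ± 0.556 (SE) between malignant and benign tumours, with unadjusted limma p of 0.00183 and 0.0123 and adjusted p of 0.305 and 1. Only 2 of the 4 healthy arrays measured FCER1G well above background, so the size of the first difference is uncertain. It was 1.33 on the table of median signals, 1.57 with normexp background and quantile normalisation, 1.89 without healthy dog 1 and 3.80 without healthy dog 2, where it was called. The second was -1.09 on that table and -1.08 with normexp.

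FCER1A was at -0.87, 0.43, -4.76, -1.78 and -2.26 in malignant dogs 1 to 5, -0.63, -0.12 and 0.32 in benign dogs 1 to 3 and -4.35 and 0.91 in healthy dogs 1 and 2. Healthy dog 2 was the highest dog, and 8 of 9 malignant, 6 of 6 benign and 3 of 4 healthy arrays were well above background, and no group stood apart. Of 7 listed mast cell genes 3 were measured and none was called by limma, with 1 of 3 higher in malignant and 3 of 3 higher in benign tumours than in healthy tissue. CMA1, the mast cell chymase, was at -2.38, -0.33, -4.90, -4.61 and -2.96 in malignant dogs 1 to 5, -1.84, -0.50 and 0.11 in benign dogs 1 to 3 and -4.77 and -0.77 in healthy dogs 1 and 2. Benign dog 3 was highest there, and 7 of 9 malignant, 6 of 6 benign and 3 of 4 healthy arrays were well above background. MS4A2, the beta chain of the IgE receptor, was highest in healthy dog 2 at 0.06, beside -4.33 in healthy dog 1. KIT, the receptor of stem cell factor, was higher in malignant dog 4 (0.14) than in either healthy dog (-2.85 and -1.51).

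**Figure D5:**
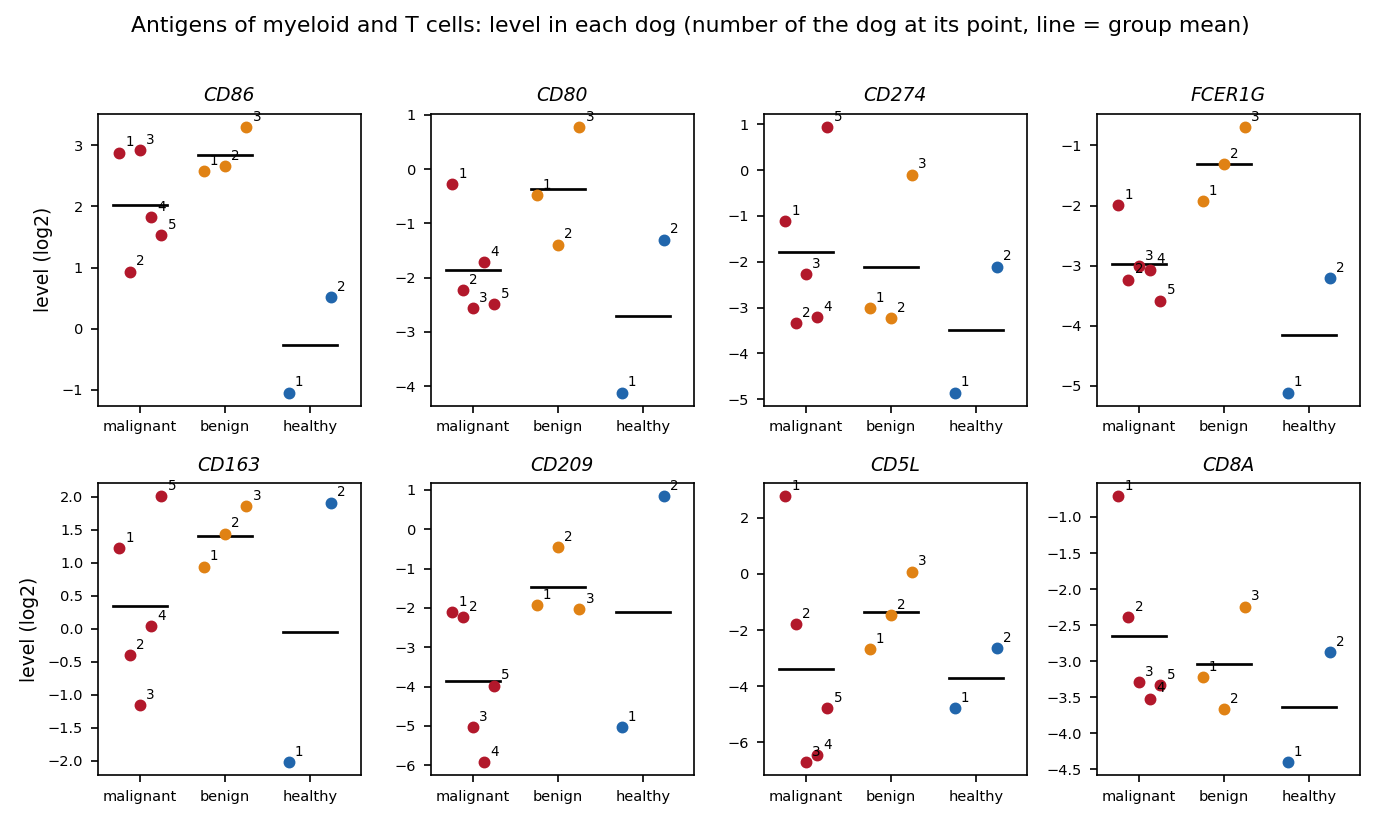
Levels (log2, 0 is the 75th percentile of the array) of 8 genes of costimulation, Fc receptors, macrophages, dendritic cells and T cells in each dog, with the number of the dog beside its point and a line at the group mean. CD86 is the gene in which all tumours, from 0.94 upward, lie above healthy dog 2 at 0.52, while for CD209 healthy dog 2 at 0.84 is the highest dog.

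Macrophage and dendritic cell antigens went in several directions, with 4 of 6 tested genes higher in malignant and 4 of 6 higher in benign tumours. These counts were 2 and 2 without healthy dog 1 and 6 and 3 without healthy dog 2. The malignant count was also 2 without malignant dog 5. CD163, the haemoglobin scavenger receptor of macrophages, was at 1.22, -0.40, -1.16, 0.03 and 2.01 in malignant dogs 1 to 5, 0.94, 1.44 and 1.85 in benign dogs 1 to 3 and -2.02 and 1.91 in healthy dogs 1 and 2. Healthy dog 2 matched the highest tumours and healthy dog 1 was the lowest dog of all, so the healthy pair spanned nearly the whole range. CD209, a lectin of dendritic cells and macrophages, was at -2.10, -2.23, -5.03, -5.91 and -3.97 in malignant dogs 1 to 5, -1.93, -0.45 and -2.02 in benign dogs 1 to 3 and -5.03 and 0.84 in healthy dogs 1 and 2. Healthy dog 2 was the highest dog, all benign dogs were above all malignant dogs, and the log2 differences were -1.75 ± 1.45 (SE) for malignant minus healthy and -2.38 ± 1.26 (SE) for malignant minus benign, with limma adjusted p of 0.951 and 1. Only 5 of 9 malignant and 2 of 4 healthy arrays were well above background, so the sizes are uncertain. Without healthy dog 1 the first was -4.69 and without healthy dog 2 it was 1.18, the opposite sign, and the second was -1.31 on the table of median signals and -1.38 with normexp.

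CD5L, a protein that macrophages secrete, was at 2.76, -1.78, -6.70, -6.45 and -4.77 in malignant dogs 1 to 5, -2.68, -1.47 and 0.08 in benign dogs 1 to 3 and -4.78 and -2.64 in healthy dogs 1 and 2. Malignant dog 1 was highest, and the gene was well above background on 5 of 9 malignant, 6 of 6 benign and 2 of 4 healthy arrays, with a difference of 2.35 ± 2.34 (SE) for benign tumours (limma adjusted p = 0.919) that ran from 1.28 without healthy dog 1 to 4.30 with the slide as a block, with 1.29 on the table of median signals and 3.42 without healthy dog 2. CD1 molecules present lipids to T cells. CD1B was well above background on only 4 of 19 arrays, 2 malignant, 1 benign and 1 healthy, and stood at -7.07, -5.46, -5.65, -6.94 and -4.50 in malignant dogs 1 to 5, -7.56, -6.29 and -6.73 in benign dogs 1 to 3 and -6.53 and -4.64 in healthy dogs 1 and 2. Most of these levels are near background, so no order of the dogs is read from them. The difference was -0.34 ± 0.786 (SE) for malignant and -1.28 ± 0.858 (SE) for benign tumours (limma adjusted p = 0.987 and 0.842), and 0.077 and -0.081 with normexp background and quantile normalisation. Without healthy dog 1 they were -1.28 and -2.22, and without healthy dog 2 they were 0.61 and -0.33.

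CD1C was at -4.17, -3.39, -2.05, -3.58 and -2.31 in malignant dogs 1 to 5, -3.82, -3.62 and -3.49 in benign dogs 1 to 3 and -3.13 and -3.17 in healthy dogs 1 and 2. Its benign dogs were all just below the healthy dogs, the 1 gene of the 30 with that order, at a difference of -0.50 ± 0.651 (SE) (limma adjusted p = 0.95), while malignant dogs lay on both sides. This small difference ran from -0.21 with normexp to -1.0 with the slide as a block. CD1A6 showed no separation of the groups. CD1A8 was well above background on 3 of 19 arrays, all of them benign, and was not tested.

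Of the 4 genes that the rule leaves out, FCGR1A, a high-affinity IgG receptor of macrophages and other myeloid cells, was the 1 called by limma. It was at 0.86, -0.24, 0.81, 0.10 and 1.25 in malignant dogs 1 to 5, 1.59, 2.86 and 2.58 in benign dogs 1 to 3 and -2.26 and -1.13 in healthy dogs 1 and 2. The difference was 4.04 ± 0.638 (SE) for benign tumours (n = 3 and 2, adjusted p = 0.0275) and 2.25 ± 0.584 (SE) for malignant tumours (adjusted p = 0.379, not called). The call for benign tumours was lost without malignant dog 1, 3 or 4, benign dog 2 or 3 or healthy dog 1, at adjusted p between 0.0532 and 0.430 and differences between 3.47 and 4.04.

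Genes of macrophages and of phagocytes in general that the symbol rule does not take were compared in the same fit. PTPRC (CD45) and CD3E, general markers of leukocytes and of T cells, were not measured by the symbols used here. Of 18 macrophage and monocyte genes 3 were measured, 2 of them higher in both kinds of tumour and none called by limma. TYROBP, an adaptor of myeloid receptors, was at 3.65, 2.04, 2.36, 2.68 and 4.45 in malignant dogs 1 to 5, 3.34, 3.51 and 4.40 in benign dogs 1 to 3 and -0.18 and 2.01 in healthy dogs 1 and 2. As for CD86, both healthy dogs were the lowest, and malignant dog 2 exceeded healthy dog 2 by a small margin. CYBB, a subunit of the phagocyte oxidase, was at 2.79, 0.93, 0.36, -0.07 and -0.33 in malignant dogs 1 to 5, 1.71, 2.91 and 2.06 in benign dogs 1 to 3 and -0.79 and 1.17 in healthy dogs 1 and 2, with the benign dogs above both healthy dogs and the malignant dogs on both sides of healthy dog 2. Of 9 neutrophil genes 5 were measured, with 3 higher and 2 lower in each kind of tumour and none called by limma. S100A8, a calcium-binding protein of neutrophils that epithelium can also make, was at 4.17, 2.60, 2.12, 7.84 and 1.63 in malignant dogs 1 to 5, 5.35, 5.66 and 8.45 in benign dogs 1 to 3 and 0.03 and 1.64 in healthy dogs 1 and 2. Benign dog 3 and malignant dog 4 were highest, and malignant dog 5 was at the level of healthy dog 2.

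T cell antigens were represented by CD8A, CD4 and CD28. CD8A, the coreceptor of cytotoxic T cells, was at -0.72, -2.39, -3.29, -3.52 and -3.33 in malignant dogs 1 to 5, -3.23, -3.66 and -2.24 in benign dogs 1 to 3 and -4.40 and -2.87 in healthy dogs 1 and 2. Malignant dog 1 was highest, benign dog 3 and malignant dog 2 followed, and the remaining tumours lay between the healthy dogs. The second probe of CD8A also had its highest level in malignant dog 1, at -0.46. CD4, the coreceptor of helper T cells, which canine neutrophils also carry, was at -3.54, -3.99, -3.06, -2.60 and -2.97 in malignant dogs 1 to 5, -3.37, -3.49 and -1.98 in benign dogs 1 to 3 and -2.96 and -2.95 in healthy dogs 1 and 2. Benign dog 3 was highest and malignant dog 2 lowest, both healthy dogs lay between them, and the difference was -0.27 ± 0.559 (SE) for malignant tumours (limma adjusted p = 0.982), or -0.084 without malignant dog 2 and -0.43 without malignant dog 4.

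CD28, the receptor on T cells for CD80 and CD86, was well above background on 4 of 9 malignant, 5 of 6 benign and 0 of 4 healthy arrays. For each healthy array the higher of the probe's own level and the lowest level well above background was taken as a bound. The tumour mean divided by it gave 1.04 (malignant) and 1.13 (benign). The limma adjusted p of 0.918 and 0.82 belong to the log2 differences of 1.845 and 1.963 from the healthy signals themselves, not to this ratio. That ratio was below 1 without malignant dog 1 (0.84), malignant dog 5 (0.67) or healthy dog 2 (0.897) for malignant tumours and without benign dog 3 (0.689) or healthy dog 2 (0.974) for benign tumours, so no difference is established. Malignant dog 5 was the highest dog at -2.32, followed by benign dog 3 at -3.31 and malignant dog 1 at -3.63.

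Of 24 other T and NK cell genes 8 were measured, with 4 higher and 4 lower in malignant and 6 higher and 2 lower in benign tumours, and none was called by limma. CTLA4, an inhibitory receptor of T cells, was at -1.68, -2.91, -4.42, -2.80 and -6.87 in malignant dogs 1 to 5, -1.72, -3.04 and -0.06 in benign dogs 1 to 3 and -5.06 and -3.70 in healthy dogs 1 and 2, highest in benign dog 3, and was well above background on 7 of 9 malignant, 6 of 6 benign and 2 of 4 healthy arrays. IL2RG, the chain shared by several interleukin receptors, reached 1.06 in malignant dog 2 and was between -4.14 and -2.05 in the others. PRF1, the pore-forming protein of cytotoxic cells, was at -2.48 and -3.30 in the healthy dogs, of which healthy dog 1 was just above the highest tumour.

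CD79A, a chain of the B cell receptor, was the 1 B cell antigen of the 31 genes and stood at -3.43, -2.11, -2.79, -3.41 and -2.51 in malignant dogs 1 to 5, -2.34, -3.05 and -3.18 in benign dogs 1 to 3 and -3.57 and -3.01 in healthy dogs 1 and 2. It ranged over 1.46 log2 units, and no group stood apart. MS4A1, the gene of CD20, the 1 gene measured of 15 others of B cells and plasma cells, was at -4.72, -7.01, -6.71, -7.26 and -7.52 in malignant dogs 1 to 5, -4.90, -7.76 and -4.93 in benign dogs 1 to 3 and -6.85 and -4.56 in healthy dogs 1 and 2. It was well above background on only 2 of 9 malignant, 4 of 6 benign and 2 of 4 healthy arrays, so no order of the dogs is read from it.

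CD38, an ectoenzyme of activated lymphocytes and plasma cells, was at 1.46, -0.91, -2.97, -1.98 and -0.34 in malignant dogs 1 to 5, 1.39, 0.10 and 0.42 in benign dogs 1 to 3 and -2.18 and -0.54 in healthy dogs 1 and 2. Benign dogs were above both healthy dogs, and malignant dog 1 was as high as benign dog 1 while malignant dog 3 was lower than any healthy dog. CD52, a small glycoprotein of lymphocytes and monocytes, was at -2.81, -3.15, -4.77, -2.27 and -6.52 in malignant dogs 1 to 5, -3.14, -2.79 and -1.67 in benign dogs 1 to 3 and -5.74 and -3.08 in healthy dogs 1 and 2. It was well above background on 6 of 9 malignant, 6 of 6 benign and 2 of 4 healthy arrays, so the low dogs are not put in order.

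Broadly expressed antigens, carried by leukocytes and by many other cells, had a higher mean in 0 of 3 genes in malignant and 1 of 3 in benign tumours. The malignant count was 1 without malignant dog 1 or healthy dog 2. The benign count was 2 without benign dog 2, healthy dog 1 or healthy dog 2. CD47, which protects cells from being engulfed, was at 3.29 and 2.17 in healthy dogs 1 and 2, 3.77, 2.89 and 3.78 in benign dogs 1 to 3 and 2.35, 3.70, -0.59, 1.23 and 1.81 in malignant dogs 1 to 5. Malignant dog 3 was far below the other dogs and the benign dogs were high, with a difference of -1.03 ± 0.928 (SE) for malignant tumours (limma adjusted p = 0.951), which was -0.45 without malignant dog 3, -0.47 without healthy dog 1 and -1.59 without healthy dog 2. CD34, a glycoprotein of endothelium and progenitor cells, was at -0.64 and 1.51 in healthy dogs 1 and 2, 0.29, 0.25 and 0.25 in benign dogs 1 to 3 and 0.06, 0.43, 0.70, 0.34 and -1.14 in malignant dogs 1 to 5. The tumours lay between the 2 healthy dogs except malignant dog 5, which was below both, at differences of -0.36 ± 0.655 (SE) and -0.17 ± 0.715 (SE) for malignant and benign tumours (limma adjusted p = 0.978 and 0.994). These were -1.43 and -1.25 without healthy dog 1 and 0.72 and 0.90 without healthy dog 2, and the first was -0.055 without malignant dog 5. CD44, the hyaluronan receptor, ran from -1.78 in malignant dog 1 to 1.21 in malignant dog 5 with a difference of -0.05 ± 0.884 (SE) for benign tumours (limma adjusted p = 1), which was 0.01 with median scaling and turned without benign dog 2 (0.46) or healthy dog 1 (0.17).

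Markers of other cells in the tissue were measured in the same dogs. Of 7 tested mammary epithelium genes, 3 were higher in malignant and 6 in benign tumours than in healthy tissue, of 4 stroma genes 3 and 3, of 6 endothelium genes 1 and 2, of 3 adipose genes 2 and 0, of 2 milk protein genes 2 and 0 and of 2 proliferation genes 2 and 2, none of them called by limma. Of 6 erythroid genes 0 were found by symbol. The summed level of the stroma genes, of which COL1A2 had the brightest probe, was 8.25, 8.49, 10.88, 8.23 and 8.63 in malignant dogs 1 to 5, 8.19, 9.35 and 9.24 in benign dogs 1 to 3 and 6.05 and 10.20 in healthy dogs 1 and 2. Healthy dog 1 was thus lowest in stroma genes and malignant dog 3 highest, and malignant dog 5, high in class II, was highest in adipose genes with a summed level of 5.71. The part of these cells in the leukocyte gene differences was not tested.

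Arrays lay on 6 slides, and slides that held more than 1 group allowed a comparison within a slide. For malignant minus healthy the median difference over the 30 genes was 1.55 on slide 2, 2.49 on slide 4 and -0.88 on slide 5, where the dogs were malignant 1 against both healthy dogs, malignant 1 and 2 against healthy 1, and malignant 4 against healthy 2. For benign minus healthy it was 1.06 on slide 2 and 0.66 on slide 5. For malignant minus benign it was 0.31, -1.58, -1.48 and -0.68 on slides 2, 3, 5 and 6. With the slide as a block and the dog as a random block, a fit chosen after seeing the data, the medians were 0.32, 1.47 and -0.87 and no gene of the 30 was called by limma. The array of malignant dog 5 was alone on its slide, on a scanner and scan day of its own, so those cannot be told apart from that dog.

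Probes of the same gene did not always give the same sign. For 16 of the 31 genes the array held other probes, 19 in all, and the sign of the difference was opposite to that of the probe used in 4 of them for malignant minus healthy, in 3 for benign minus healthy and in 7 for malignant minus benign. Some of these probes were dim, such as those of CD1A6 and CD1C, well above background on 5 arrays and 1 array, and others were not: for malignant minus healthy the other probe of CD163 (19 arrays) gave -0.05 beside 0.40 for the probe used and that of DLA-DOA (18 arrays) -0.38 beside 0.06, and for malignant minus benign that of DLA-DRA (19 arrays) gave -0.21 beside 0.09, that of CD274 (15 arrays) -0.22 beside 0.32 and that of CD8A (14 arrays) -0.61 beside 0.40.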

How the data were processed

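Mammary tissue RNA was labelled with Cy3 and hybridised to Agilent canine 4x44K arrays. Per the labels and the file headers, the authors extracted the spots with Feature Extraction 11.5.1.1 (the methods name another version), and deposited each spot's intensity, unlogged: the background-subtracted processed signal and the mean, median and background signals of 19 arrays, and a series matrix of all 22, equal to the median signal where both exist. Here control and outlier spots were left out, log2 processed signals were set to the array's 75th percentile, and spots, then arrays a and b of a dog, were averaged (the labels call them biological duplicates, the methods duplicate arrays of a sample). RefSeq symbols (assembly UU_Cfam_GSD_1.0) matched 2348 of 2441 NM probes. The brightest probe stood for a gene, and 28936 genes that exceeded background clearly (the scanner software's call) on 4 or more arrays entered a fit of the 3 groups (limma 3.58.1, R 4.3.3, data.table version 1.17.8; Benjamini-Hochberg, threshold 0.05), after a check on simulated data. Members and lists were chosen with earlier results of these data known. The counts of the pan-leukocyte list are not reported here. Values were given for the 2 members of highest mean level in each role and the 5 largest rises and falls of members in each comparison with healthy tissue. Alternatives were other scalings and backgrounds, the series matrix, filters, probes, blocks, the methods' t-test and each dog left out. The number of dogs limits precision.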

Additional observations from a re-analysis of the deposited data

Results flagged for a closer look

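No malignant dog stood far enough from the other 4 to pass Dixon's criterion in any of the 31 genes, a criterion that chance passes in about 1 of 20 groups. Malignant dog 6, which entered only through the table of median signals, was outside the comparisons of the report. On the scale of that table, log2 of the median signal minus the 75th percentile of the array with no background taken off, this dog was above both healthy dogs in 13 of the 31 genes, beside 35.7% of all genes tested, and below both in 6, beside 28.3%. It was above both by more than 1 log2 unit in 2, beside 5.25% of all genes: in CD86 at 3.09, beside -0.76 and 0.66 in healthy dogs 1 and 2, and in CD38 at 1.64, beside -1.62 and -0.30.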

How the results depend on the processing

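The direction of the median over the 30 genes was kept for benign minus healthy and malignant minus benign in every alternative fit over all slides, but within slide 2 malignant minus benign was 0.31. For malignant minus healthy it turned without healthy dog 1, and within slide 5, at -0.88. With each dog left out in turn, that median ran from -0.057 to 1.79, without healthy dogs 1 and 2 respectively, and for benign minus healthy from 0.43 to 2.78, again without healthy dogs 1 and 2. For malignant minus benign it ran from -1.03 to -0.24, without malignant dogs 1 and 3. The number of the 30 called by limma for benign minus healthy was between 0 and 2 with dogs left out, and over all genes tested between 51 and 814 for malignant minus healthy, between 47 and 860 for benign minus healthy and between 0 and 1 for malignant minus benign. Without healthy dog 2 the remaining healthy dog is assumed to vary like the other groups.

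With arrays fitted singly and the dog as a random block, p may be too small, because that fit counts arrays, not dogs, when it judges the spread. In that fit 1 of the 30 was called in each comparison with healthy tissue, CD86 (adjusted p = 0.0418 and 0.00769, limma), and 138 and 142 of all genes. With the slide as a block, which counts arrays of a dog as independent and so makes p too small, it was 1 for malignant tumours (CD86, 2.48, adjusted p = 0.0293) and 2 for benign tumours (CD86, 2.99, 0.0177, and FCER1G, 2.82, 0.0200), with 713, 582 and 16 of all genes in the 3 comparisons. With slide and dog both as blocks, chosen after seeing the data, 0 of the 30 were called, with lowest adjusted p of 0.180 and 0.0615 against healthy tissue.

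Dogs of the same number in different groups are different animals, and their deviations correlated with r between -0.187 and 0.106, so the numbers do not pair them. With the number as a replicate block, 51 and 50 of all genes were called against healthy tissue, beside 88 and 81 without it, and no call among the 30 changed, while CD274, CD209, CD47 and CD4 for malignant minus healthy were 0.75, -0.41, -0.38 and -0.93 and FCGR1A for benign minus healthy was 3.89 and not called (adjusted p = 0.357).

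On the table of the same dogs the median of all genes moved to -0.16, -0.39 and 0.25 in the 3 comparisons, that of the 30 to 0.27, 0.74 and -0.41, and 20, 18 and 10 of the 30 were higher. With normexp background and quantile normalisation the median of the 30 was 0.42, 0.84 and -0.50. Fewer genes were tested with probes well above background on every array, and 30 and 28 were called against healthy tissue. With only the groups compared in the fit, 9 were called for benign minus healthy, and FCGR1A was not (adjusted p = 0.392). The methods' t-test, here unpaired and without Storey correction, called 9, 0 and 0 genes after Benjamini-Hochberg and 1139, 1386 and 638 at an unadjusted p of at most 0.05.

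Among single genes, CD209 for malignant minus healthy ran from -4.69 to 1.18, CD34 from -1.43 to 0.72 and CD1B from -1.28 to 0.61 over the dogs left out, each lowest without healthy dog 1 and highest without healthy dog 2. For benign minus healthy CD34 ran from -1.25 to 0.90 in the same way and CD44 from -0.47 to 0.46, without benign dogs 3 and 2. CD34 was also 0.14 for malignant minus healthy with slide and dog as blocks, CD1B 0.077 with normexp background and quantile normalisation, and CD44 0.01 for benign minus healthy with median scaling. The cause was not tested. The signal over background limits the dim genes, above all CD28, CD1B, CD5L and CD209.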
